A study of Homo sapiens with 9 samples.

Results

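The nucleoside diphosphate kinases described here are the products of 6 NME genes, NME1, NME2, NME3, NME4, NME6 and NME7, followed through the ribosome footprints on their mRNAs. The genes were chosen by name, with their footprint changes in these data already known, so the values below are a description. Of the 6 genes, 5 had a row in both of the deposited tables, out of 8775 transcripts listed in both and 9221 listed in either. NME2 had a row in neither table and has no value here.

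The cells were Huh-7, an established line from a human hepatocellular carcinoma, given 1.5 μM PF-06378503 (PF8503), 1.5 μM PF846 (PF-067446846 in the labels) or 0.5% DMSO as the vehicle for 1 hr. PF8503 and PF846 are small molecules that stall the ribosome on selected mRNAs, and the comparison asked which proteins each of them affects. Each condition had 3 libraries from biological replicates, 9 in all, and the same vehicle libraries served both compounds. By the lane numbers in the labels' library names, conditions shared no sequencing lane, so an effect of the lane cannot be told apart from one of the compound.

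In ribosome profiling, the pieces of mRNA shielded from nuclease by a ribosome are sequenced, and their number on a coding sequence reflects how many ribosomes occupied it. The tables give, for each transcript, the authors' mean over the libraries of a condition, in normalized counts (reads divided by DESeq size factors). The tables used here hold no values per library, so the replicate error and the depth of each library are unknown and no difference was tested here. The study's analysis commands number the replicates differently from the labels, so it is not certain which libraries entered each mean. Without matched RNA-seq, a lower mRNA level and fewer ribosomes per mRNA cannot be told apart. The means summed over transcripts to about the same total with compound as with vehicle. AFP and ALB, which mark hepatocyte-derived cells, held the 2 highest vehicle means. Of the other such markers, APOB was number 4 and APOA1 number 23 from the highest in the PF8503 table. TTR and SERPINA1 stood lower there, at numbers 1068 and 1712 of 9157. PTPRC (leukocytes) and COL1A1 (fibroblasts) had no row, whereas PECAM1 (endothelium) had a vehicle mean of 170 normalized counts.

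Nucleoside diphosphate kinases move the terminal phosphate of a nucleoside triphosphate, usually ATP, onto a nucleoside diphosphate, by way of a phosphate carried on a histidine of the enzyme. They thereby keep GTP, CTP, UTP and the deoxynucleotides supplied from ATP. NME1 and NME2 are the abundant cytosolic forms, which assemble into mixed hexamers, and NME1 (nm23-H1) was first known as a metastasis suppressor. NME3, NME4 and NME6 are found at or in mitochondria, and NME7 belongs to the gamma-tubulin ring complex, which nucleates microtubules.

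The stretch of the coding sequence around the active-site histidine is shown for all 6 genes, because it is what makes them a family and because its surroundings bear on which reads could be counted. Each line gives 30 bases, 5′ to 3′ on the coding strand, with the histidine codon in capitals, read from the canonical transcript of GENCODE version 44 (GRCh38).
NME1: aggaacattataCATggcagtgattctgtg
NME2: aggaacatcattCATggcagtgattcagta
NME3: aagaacctgattCACggcagcgactcggtg
NME4: aggaatgtcatcCACgccagcgactccgtg
NME6: cgcaacaccaccCATggttcggactctgtg
NME7: agaaatgcagcgCATggccctgattctttt
The histidine is codon 118 in NME1 and in NME2, 135 in NME3, 151 in NME4, 129 in NME6 and 206 in NME7. In NME7, where a looser form of the motif was searched, 1 such site was found. The stretches lie at chr17:51161271-51161755 (forward strand) for NME1, chr17:51170048-51171514 (forward) for NME2, chr16:1770739-1770882 (reverse) for NME3, chr16:399738-400246 (forward) for NME4, chr3:48294796-48295096 (reverse) for NME6 and chr1:169298571-169298600 (reverse) for NME7. An intron interrupts the stretch after its first 2 bases in NME1, NME2, NME3 and NME4 and after 22 bases in NME6. In NME7 the stretch lies within 1 coding exon.

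The canonical transcript of the NME1 gene (ENSG00000239672.8) lies on chromosome 17 from 51153559 to 51162168. The canonical transcript of NME2 starts 4242 bases downstream on the same strand, at 51166411. Both coding sequences have 152 codons in 4 coding exons, and they are identical at 371 of 459 bases, or 80.8%, stop codon included. The other pairs of the 6 genes were identical at 53.9% to 67.5% of aligned bases. The longest run of identical bases in NME1 and NME2 is 23, from codon 75 to codon 82, so that any exact window of 26 bases or more tells them apart. Their most alike in-frame stretch of 30 bases, which contains that run, is shown with the differing base in capitals (codons 75 to 84, at chr17:51160076-51161183 in NME1 and chr17:51168338-51169960 in NME2, both forward and both interrupted by an intron).
NME1: gccatggtctgggaggggctgaaTgtggtg
NME2: gccatggtctgggaggggctgaaCgtggtg
The most different stretch, at codons 35 to 44, differs at 12 of 30 bases (chr17:51155757-51159985 and chr17:51166933-51168247, again forward and interrupted by an intron), in capitals.
NME1: ctTgtTgGTCtgaaAttcAtGcAAgcTtcC
NME2: ctCgtGgCCAtgaaGttcCtCcGGgcCtcT

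NME1 and NME2 are also joined in a readthrough gene, NME1-NME2, whose coding transcript takes in exons of both. The authors kept only reads with a single position in their reference, so the presence of this transcript decides which reads could be counted. Windows of 28 bases were followed through the coding sequence, without the 10 codons at each end that the authors left out. Among all canonical coding transcripts of GENCODE version 44, the readthrough included, 83 of 369 windows of NME1 occurred once, or 22.5%, and 0 of 369 of NME2. The 83 windows of NME1 were contiguous and started between codons 106 and 133, so that the active-site histidine codon lies among them. With the readthrough left out, 100% of the windows of NME1 and of NME2 occurred once. For NME3, NME4, NME6 and NME7 the share was 100% in either case. Neither NME1-NME2 nor NME2 had a row in either deposited table. Which of these transcripts stood in the authors' reference, built from GENCODE version 24, was not tested.

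**Figure D1:**
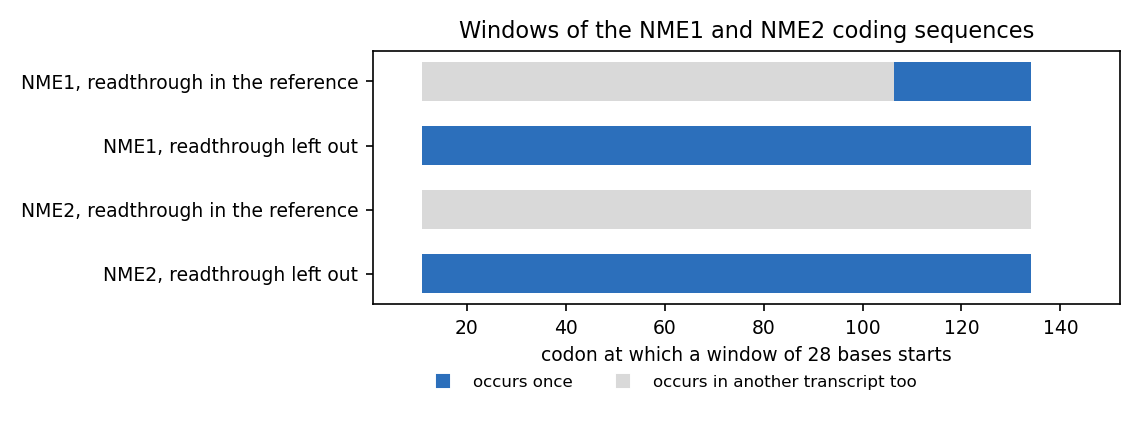
Start positions (x axis, codon of the coding sequence) of windows of 28 bases in NME1 and NME2, blue where the window occurs once among canonical coding transcripts and grey where another transcript holds it too. With the NME1-NME2 readthrough in the reference, the 83 single windows of NME1 lie between codons 106 and 133 and NME2 has 0.

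With PF8503, NME1 was the member that stood apart. Its authors' mean was 1872 normalized counts with vehicle and 1199 with PF8503, which is 64.1% of vehicle and a log2 ratio of -0.64. In the PF846 table its means were 1713 with vehicle and 1712 with PF846, which is 99.9% of vehicle and a log2 ratio of -0.00094. At the same dose and time, the PF8503 minus PF846 difference of log2 ratios was -0.64. This difference was number 55 from the lowest among the 8775 transcripts in both tables, of which 1.00% differed by -0.5 or less. On the scale of the PF846 table, the mean of NME1 was 1097 normalized counts with PF8503 against 1712 with PF846. The error of this difference is unknown, and 1 pair of compounds was compared.

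Counting a log2 ratio of -0.5 or less as lower, 1 of the 5 listed members, NME1, was lower with PF8503, against 1.08% of all transcripts in that table (99 of 9157). With PF846, 0 of 5 were lower, against 0.396% of transcripts (35 of 8839). No member was higher by 0.5 or more with either compound, against 0.24% of transcripts with PF8503 and 0.0792% with PF846. Since NME1 was chosen with this value known, nothing is read from its count. In the order of log2 ratios with PF8503, NME1 was number 55, between TOB2 (-0.66) and GDAP1 (-0.64). At the limit itself, TP53I13 was the last inside (-0.50) and MFAP2 the first outside (-0.49).

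NME1 also had the highest footprint level per length among the listed members. Per 100 codons of the canonical coding sequence, its vehicle mean in the PF8503 table was 1418 normalized counts, against 237 for NME4, 216 for NME6, 165 for NME3 and 52.2 for NME7. These levels take all codons as countable, whereas with the readthrough in the reference only 22.5% of NME1 windows occurred once. The values of NME1 would then rest on reads starting at codon 106 or later, and its level would be understated. If NME2 was absent from the reference and mismatches were allowed, some NME2 reads could have been counted as NME1. With up to 2 mismatches, 88.6% of the 28-base windows of NME1 occurred once against the other members alone. How many NME2 reads that concerned was not tested. The lengths are those of GENCODE version 44, and the study's transcripts may be other isoforms. With the longest isoform of each gene the level per 100 codons of NME1 was 1192 normalized counts and that of the others 52.2 to 226, and with the shortest it was 3019 against 58.0 to 526, with NME6 then above NME4. The step from NME1 to the next member was wide, while NME4 and NME6 were close, and without single libraries no order between neighbors can be set against a spread. Its vehicle mean put NME1 above 87.6% of the transcripts in the PF8503 table. Among the 500 transcripts with vehicle means nearest to that of NME1, the central 95% of log2 ratios with PF8503 ran from -0.18 to 0.17, and 1 was lower than NME1. The same range with PF846 was -0.13 to 0.14, and 230 of the 500 were lower than NME1. Because NME1 was chosen with its log2 ratios known, these ranges describe its place and are not a test.

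**Figure D2:**
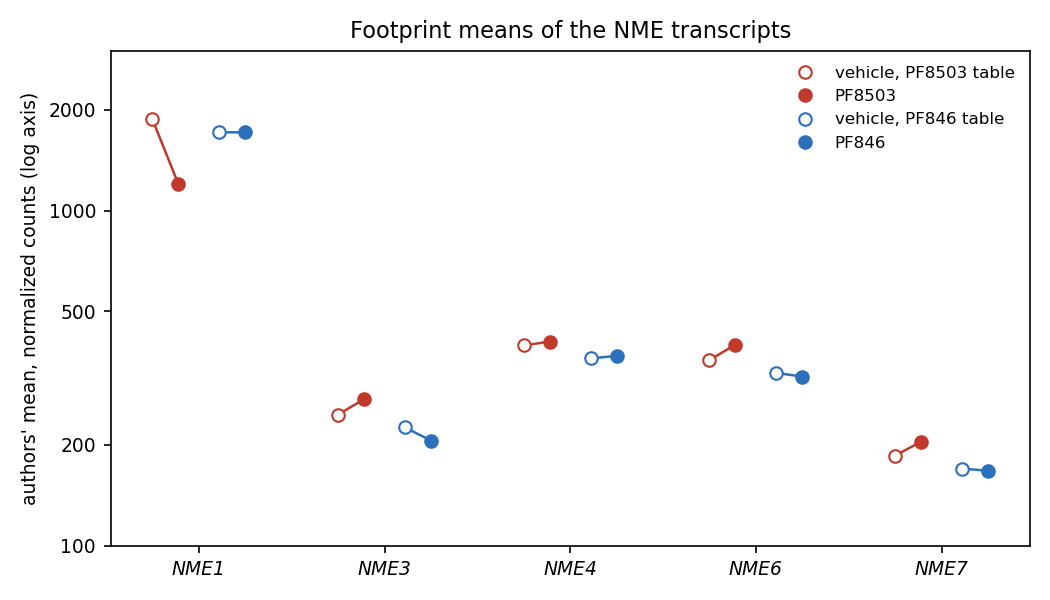
Authors' mean normalized counts (y axis, log scale) of the 5 listed NME transcripts, with open circles for vehicle and filled circles for the compound, in red for the PF8503 table and blue for the PF846 table. The line of NME1 drops from 1872 to 1199 with PF8503 and is level with PF846, and the lines of the other members are short. The scales of the tables differ by a constant factor, so only points joined by a line are compared.

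The mitochondrial members had means at 103% to 111% of vehicle with PF8503 and at 91.4% to 102% with PF846. NME3, which is anchored at the outer mitochondrial membrane, had means of 246 normalized counts with vehicle and 274 with PF8503, a log2 ratio of 0.15. In the PF846 table it had 225 with vehicle and 206 with PF846, a log2 ratio of -0.13. NME3 thus lay on opposite sides of vehicle with the compounds, as did NME6 and NME7. The PF8503 minus PF846 difference of NME3, 0.28, was above 97.9% of transcripts, beside 93.1% for NME6 and 90.1% for NME7. These shares are over transcripts of all vehicle means.

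NME6, which works together with RCC1L in mitochondria, had means of 358 normalized counts with vehicle and 398 with PF8503, a log2 ratio of 0.15. In the PF846 table it had 328 with vehicle and 320 with PF846, a log2 ratio of -0.036. NME4, a mitochondrial form that binds cardiolipin, changed least in the PF8503 table, from 396 to 407 normalized counts (log2 ratio 0.039). With PF846 NME4 went from 362 to 368 normalized counts (0.024). Its PF8503 minus PF846 difference was 0.015, near the middle of all transcripts, whereas that of NME6 was 0.19.

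NME7, the member with a pair of kinase domains, had the lowest means. In the PF8503 table they were 186 normalized counts with vehicle and 204 with PF8503, a log2 ratio of 0.14. In the PF846 table they were 170 with vehicle and 167 with PF846, a log2 ratio of -0.023, and the difference between compounds was 0.16. For NME3, NME4, NME6 and NME7, each log2 ratio lay within the central 95% of the 500 transcripts with the nearest vehicle means, for both compounds. Over the 5 members the median log2 ratio was 0.14 with PF8503 and -0.023 with PF846, beside medians over all transcripts of 0.013 and 0.00086. Because both tables use the same vehicle libraries, the log2 ratios with PF8503 and PF846 are not independent of each other.

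**Figure D3:**
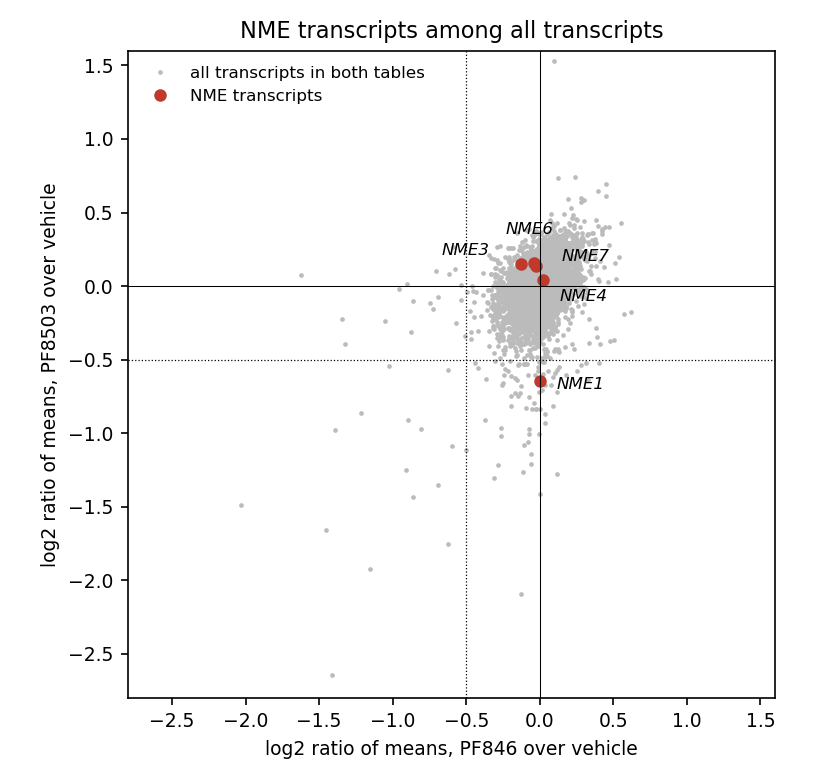
Log2 ratio of the authors' means with PF846 over vehicle (x axis) and PF8503 over vehicle (y axis) for the 8775 transcripts in both tables (grey) and the 5 NME transcripts (red), with dotted lines at -0.5. NME1 lies at -0.64 on the y axis and at about 0 on the x axis, and the other members lie inside the main cloud.

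The region of the coding sequence that was counted is not the same for every transcript. The authors located, on each transcript, the position of greatest separation between the cumulative footprint curves of compound and vehicle, called DMax, and where it was clear they counted only the codons 3′ of it. Otherwise counting began 10 codons after the start. Since the vehicle libraries are shared, a transcript's vehicle mean in the PF8503 table was a constant 1.09 times that in the PF846 table wherever the same codons were counted, and 98.5% of transcripts stood within 0.002 of it on the log2 scale. NME1 departed from it by -1.4e-05, and the other members by 4.9e-05 at most. For each member, the same vehicle reads were therefore counted with both compounds. A shift over codons that held no countable read would not show in the vehicle means. Below, a region is called the same where the vehicle mean stood within 0.002 of the constant on the log2 scale. The vehicle means cannot tell whether counting began near the start or at a DMax shared by both compounds.

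Of the 97 transcripts in both tables that were lower by 0.5 or more with PF8503, 56 had a smaller region in the PF8503 table, 7 had a larger one and 34 had the same region in both, NME1 among them. Within these 34, NME1 was number 12 from the lowest log2 ratio with PF8503, and it was the one with the PF846 log2 ratio nearest to 0. The median absolute log2 ratio with PF846 over the 34 was 0.24. A PF846 log2 ratio within 0.05 of 0 was shown by 5 of them, namely NME1, GDI2 (log2 ratio with PF8503 -0.83), FZD3 (-0.61), SLC13A5 (-0.58) and MTFR1 (-0.51), named here after their values were seen. GDI2, which recycles Rab GTPases, went from 9246 normalized counts with vehicle to 5186 with PF8503. SLC13A5, the citrate transporter of hepatocytes, went from 1107 to 742.

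The 3 transcripts with the pair of log2 ratios nearest to that of NME1 were sought among 7905 with a vehicle mean of at least 100 normalized counts in both tables, by Euclidean distance over the 2 compounds. They were PLEKHH3 (-0.63 with PF8503, distance 0.0087), PDSS2 (-0.67, distance 0.027) and GSG2, the haspin kinase (-0.61, distance 0.034). Unlike NME1, all 3 were counted over a smaller region in the PF8503 table, which held 91.2%, 87.1% and 89.1% of the vehicle reads expected from the constant ratio. Their vehicle means in that table were 151, 229 and 183 normalized counts, below that of NME1.

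Of 61 genes in 5 lists of enzymes and proteins that work beside the NME proteins, 49 had a row, and 0 of the 49 reached a log2 ratio of 0.5 in either direction with either compound. Over all transcripts, 1.08% were lower and 0.24% higher with PF8503, and 0.396% and 0.0792% with PF846, and a count of 0 among 49 is no result about these lists. Their log2 ratios ran from -0.24 to 0.26 with PF8503 and from -0.21 to 0.15 with PF846.

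The nucleoside monophosphate kinases, which make the diphosphates that the NME enzymes use, had 7 of 13 genes listed, with a median log2 ratio of 0.022 with PF8503 and 0.013 with PF846. With PF8503 they ran from -0.037 in CMPK1, which phosphorylates UMP and CMP, to 0.14 in AK1, a cytosolic adenylate kinase. With PF846 the lowest was GUK1, the guanylate kinase, at -0.15, from 170 to 153 normalized counts, and the highest was AK1 again at 0.086.

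Of the 11 genes for deoxynucleotide synthesis, 10 were listed, with a median log2 ratio of -0.059 with PF8503 and 0.038 with PF846. The lowest with PF8503 was RRM2B, a small subunit of ribonucleotide reductase, at -0.15, and the highest was TK1, thymidine kinase, at 0.081. With PF846 they ran from -0.084 in SAMHD1, which breaks down deoxynucleotides, to 0.069 in RRM1, the large reductase subunit. With PF8503, 7 of the 10 were below 0, against 45.3% of all transcripts, and with PF846, 3 were, against 49.7%.

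De novo nucleotide synthesis had 16 of 18 genes listed, with medians of 0.0082 with PF8503 and 0.041 with PF846. With PF8503 the lowest was ATIC, which completes the purine ring, at -0.054, and the highest was IMPDH1, on the route to GTP, at 0.15. With PF846 the lowest was CTPS2, a CTP synthase, at -0.10, and the highest was CAD, which starts pyrimidine synthesis, at 0.15. CAD went from 1092 normalized counts with vehicle to 1213 with PF846.

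Among partners of NME proteins, 7 of 8 genes were listed, with medians of -0.016 with PF8503 and 0.014 with PF846. PRUNE, a phosphodiesterase that binds NME1, was the lowest with PF8503 at -0.080, and SET, which forms a complex with NME1 in granzyme A-induced cell death, was the highest at 0.059. With PF846 they ran from -0.038 in OPA1, the inner-membrane fusion protein that NME4 serves, to 0.091 in SET.

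The gamma-tubulin ring complex, which holds NME7, had 9 of 11 genes listed, with medians of -0.020 with PF8503 and -0.011 with PF846. It had the widest range of the 5 lists. TUBG1, gamma-tubulin, was the highest with both compounds, at 0.26 with PF8503 (999 to 1195 normalized counts) and 0.13 with PF846. MZT2B, a small subunit, was the lowest with both, at -0.24 and -0.21. Its count may be uncertain, because reads that also fit its close copy MZT2A would have been left out. How many reads that concerned was not tested.

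**Figure D4:**
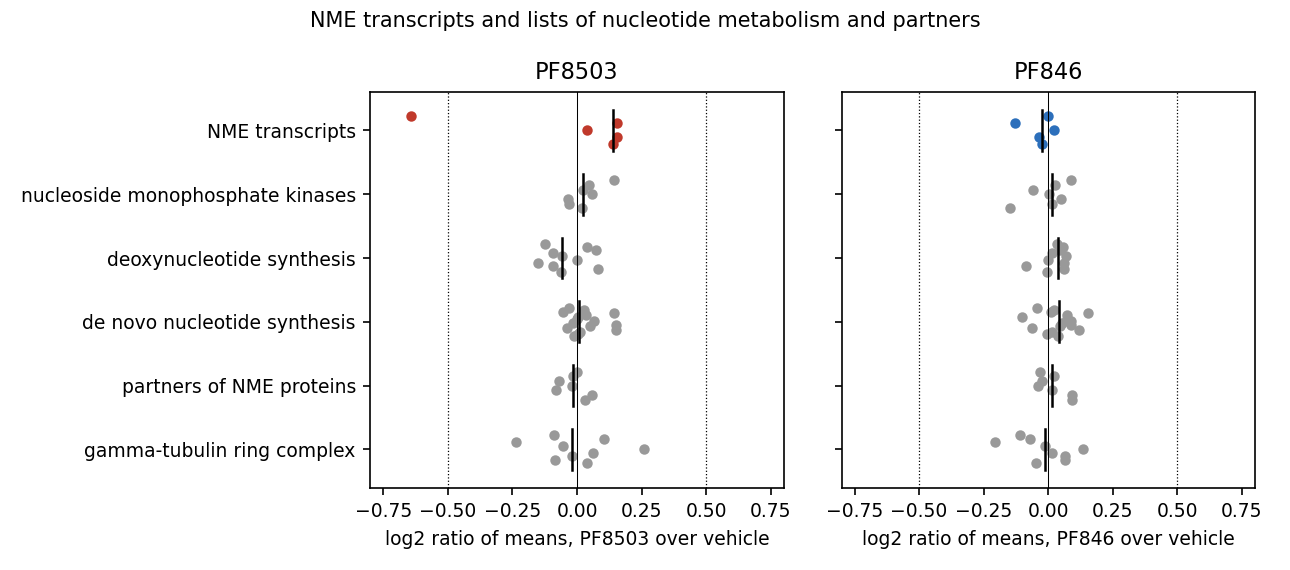
Log2 ratio of the authors' means over vehicle (x axis) for each listed transcript of the NME genes and of 5 lists, with PF8503 on the left and PF846 on the right, and a black bar at each median. NME1 with PF8503, at -0.64, is the one point beyond the dotted lines at 0.5 in either direction.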

How the data were processed

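Footprint libraries of Huh-7 cells in 3 conditions, 3 per condition, were grouped by their labels. The authors removed adapters and ribosomal RNA reads, aligned with Bowtie to canonical coding transcripts (GENCODE version 24, GRCh38), kept reads with a single position, and left out 10 codons at each end. On transcripts with a DMax Z score of 2 or above they also left out everything 5′ of DMax. Transcripts had to exceed 30 counts. Tool versions are not given in the sources used here. The signal deposited by the authors is, per transcript and condition, a mean of counts after division by size factors from DESeq. The tables also hold the authors' fold changes and p-values, which were not used.

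Log2 ratios of the means were computed here, with no model and no test. The fold rule and the region step were run on simulated data to check the code only, and nothing about the members is read from that. Genes named are the 6 members, the lowest and highest of each list per compound, the 3 transcripts most like NME1, the transcripts next to NME1 or to the limit in the order, and those said to be chosen afterwards. The members and lists were chosen with earlier results of these data known. Older symbols (ADSS, PRUNE, WBSCR16) were accepted. Sequences and positions come from GENCODE version 44 on the same build, with 1 canonical transcript per gene. The histidine was found by the motif asparagine, any 2 residues, histidine, a small residue, serine, aspartate, with proline allowed for serine, and no fixed asparagine, in NME7. Alternatives were other folds, centring, scaling, a pseudocount, a minimum mean and other windows. Python 3.11.15, numpy 2.4.6, pandas 2.3.3, biopython 1.88 and matplotlib 3.10.9 were used.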

Additional observations from a re-analysis of the deposited data

How the results depend on the processing

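At a log2 ratio of -1 or less, 0 members were lower with PF8503. At -0.25, after centring on the median, after scaling to equal sums, with a pseudocount of 1 and with a minimum mean of 100 normalized counts, the count was 1, and with PF846 it was 0 throughout. The log2 ratio of NME1 with PF8503 ran from -0.66 to -0.64, and no log2 ratio of a listed member changed sign. Setting the compound means directly against each other, each divided by its sum, gave a difference of -0.64 for NME1 and of 0.021 to 0.29 for the other members. Summing NME1 and NME2 was not run because NME2 has no row. At a tolerance of 0.01, all 5 listed members again had the same counted region.

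The share of single windows moved most with the reference. It was 22.4% for NME1 with windows of 26 bases and 22.9% with 34 bases. Against the other members alone, 97.8% of windows of NME1 and of NME2 occurred once with up to 1 mismatch and 88.6% with up to 2. Without the readthrough it was 100% for both, and without the readthrough and NME2 it was 100% for NME1. The references without these transcripts were chosen after the data were seen. No paired analysis was possible because the tables hold means over libraries. For the same reason no library could be left out, and the depth behind each mean is unknown.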
